A study of Mus musculus with 9 samples.

Results

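The insulin and IGF, PI3K, AKT and mTOR pathway was followed through 40 genes in whole mouse hearts. The genes were listed by symbol, under a rule that uses no measured value but with earlier results of these data known, and span 13 layers from the ligand to the FoxO transcription factors. All 40 were found among the 21989 gene symbols of the expression table. Levels are given as FPKM, fragments scaled by transcript length and library total. In at least 3 of the 9 libraries, 37 of the genes were at 1 FPKM or more, and these were tested. Pik3cd, Pik3r2 and Rps6kb2 did not, and are described by their values alone.

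The hearts came from male C57BL/6J mice aged 18 to 20 weeks, bought at 8 to 10 weeks. Each of 3 groups has 3 libraries, and the labels name no animal. Sham mice had a control operation and received distilled water, TAC mice had the operation abbreviated TAC in the labels (usually read as transverse aortic constriction, which loads the left ventricle with pressure) and also received distilled water, and LD mice had TAC and received Lingguizhugan decoction, a Chinese herbal preparation. Libraries are called by group and replicate, as in Sham1 or LD3. The labels give no dose, no duration and no link between libraries of the same number. RNA was taken from heart tissue as a whole, so lower RNA per cell and fewer cells of a type cannot be told apart. The series' title names the balance of MAPK and AKT signalling under LD, and the comparisons below ask whether transcripts of the pathway differed between the groups.

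Insulin and IGF1 bind receptor tyrosine kinases, which recruit PI3K through the IRS adaptor proteins. PI3K makes the membrane lipid PIP3, to which PDK1 and AKT bind. AKT is then phosphorylated by PDK1 and by the mTOR complex mTORC2. Active AKT phosphorylates and inhibits GSK3, the TSC complex and the FoxO factors, and relief from TSC lets Rheb activate mTORC1, which raises protein synthesis through S6 kinases and the 4E-BP proteins. In the heart the pathway is known for its part in physiological growth and cardiomyocyte survival. Most of its control is by phosphorylation, which RNA levels do not report.

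The FPKM values were whole multiples of 1 count in each library, which allowed counts and library totals to be recovered. The totals ran from 7.43 to 18.1 M counts. In Sham1, Sham3, TAC2 and TAC3, 90.5% to 92.0% of genes with 5 to 99 recovered counts had an even count, against 47.1% to 54.6% in the other 5 libraries, which include all 3 LD libraries. Counted as pairs, the totals of those 4 libraries would be 4.48 to 9.06 M. TAC3 and LD3 stood apart at opposite ends of the first principal component of all genes tested (29.4% of the variance), at -51.0 and 48.3, with the other 7 libraries between -10.4 and 17.1. Cardiomyocyte genes led the markers, with Tnnt2 at 10100 to 19032 FPKM. The 3 atrial markers summed to 77.3 FPKM in LD3 and to 4.42 to 14.0 FPKM elsewhere, and the 6 fibroblast markers summed to 1351 to 2251 FPKM in TAC, 893 to 1086 in sham and 999 to 1617 in LD. The 6 macrophage markers summed to 118 to 183 FPKM over the 9 libraries, the 6 endothelial markers to 684 to 968 FPKM, the 6 mural markers to 268 to 461 FPKM and the 6 lymphocyte markers to 1.05 to 10.7 FPKM. The 4 erythroid markers ranged from 451 FPKM in Sham1 to 8628 FPKM in TAC2, and of the 4 adipocyte markers Plin1 was at 0 throughout. The part of depth and cell makeup in the results below was not tested. Values with a library left out are printed beside some member differences only, and differences printed without such values can also move. With the type of counting step as a term, an alternative chosen after seeing the data, 0 members passed. The differences in TAC against sham could not move under it, because sham and TAC hold the same mix of step types. In LD against TAC 7 of 37 members took the other sign, and the differences shifted by -0.29 to 0.39 on the log2 scale, from -0.46 to -0.07 for Ppp2ca, 0.00 to 0.33 for Mapkap1, 0.10 to -0.19 for Ppp2r1a, -0.63 to -0.35 for Igf1 and 0.27 to 0.51 for Akt1. Those of Pik3ca and Foxo1 were -0.80 and -0.63. In LD against sham the shifts were the same, and 9 of 37 members took the other sign. Among them were Ppp2ca, from -0.05 to 0.35, Mapkap1, from -0.01 to 0.32, and Ppp2r1a, from 0.21 to -0.08.

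No pathway gene passed the test in any comparison. With limma on log2(FPKM + 1) and Benjamini-Hochberg adjustment over 11380 genes, 0 of 37 members had an adjusted p under 0.05 in TAC against sham, LD against TAC or LD against sham, and 0% of all genes tested did. In a moderated F test over the 3 groups 0 members passed, and at an unadjusted p under 0.05 also 0 members, against 6.76% of all genes tested. At an unadjusted p under 0.05, 1 of 37 members was called in TAC against sham (Phlpp1, higher), where 5.43% of all genes tested were called. LD against TAC had 2 of 37 (Pik3ca and Foxo1, both lower) against 8.82% of all genes tested, and LD against sham had 0 of 37 against 5.11%. These shares are near those of all genes, so they are no result about the pathway.

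The median difference of the 37 members was -0.01 on the log2 scale in TAC against sham, where the median of all genes tested was 0.00. In LD against TAC it was -0.09, beside -0.10 for all genes, and in LD against sham it was -0.10, beside -0.11. Each pair of comparisons shares a group of libraries, so their values are set side by side only. Median-of-ratios scaling, which sets the typical gene equal between libraries, moved the member median of LD against TAC to 0.03 and of LD against sham to 0.01. Standard errors of the 37 members lay between 0.23 and 0.39 on the log2 scale, so most 95% intervals span more than 1 log2 unit. Small differences of either sign were not detectable with 3 libraries a group.

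Overlap was also counted without a model. The 3 TAC libraries lay wholly above or below the 3 sham libraries for 6 of 37 members (higher for Pik3ca, Pik3r3, Phlpp1 and Gsk3b, lower for Irs1 and Akt2), a share of 16.2% beside 9.84% of all genes tested. LD and TAC libraries did not overlap for 7 of 37 members (LD higher for Irs1 and Foxo3, lower for Pik3ca, Pik3r3, Deptor, Gsk3b and Foxo4), a share of 18.9% beside 11.9%. LD and sham libraries did not overlap for 3 of 37 (LD higher for Phlpp1, lower for Irs1 and Ilk), a share of 8.11% beside 13.2%. The difference between these shares was not tested.

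**Figure D1:**
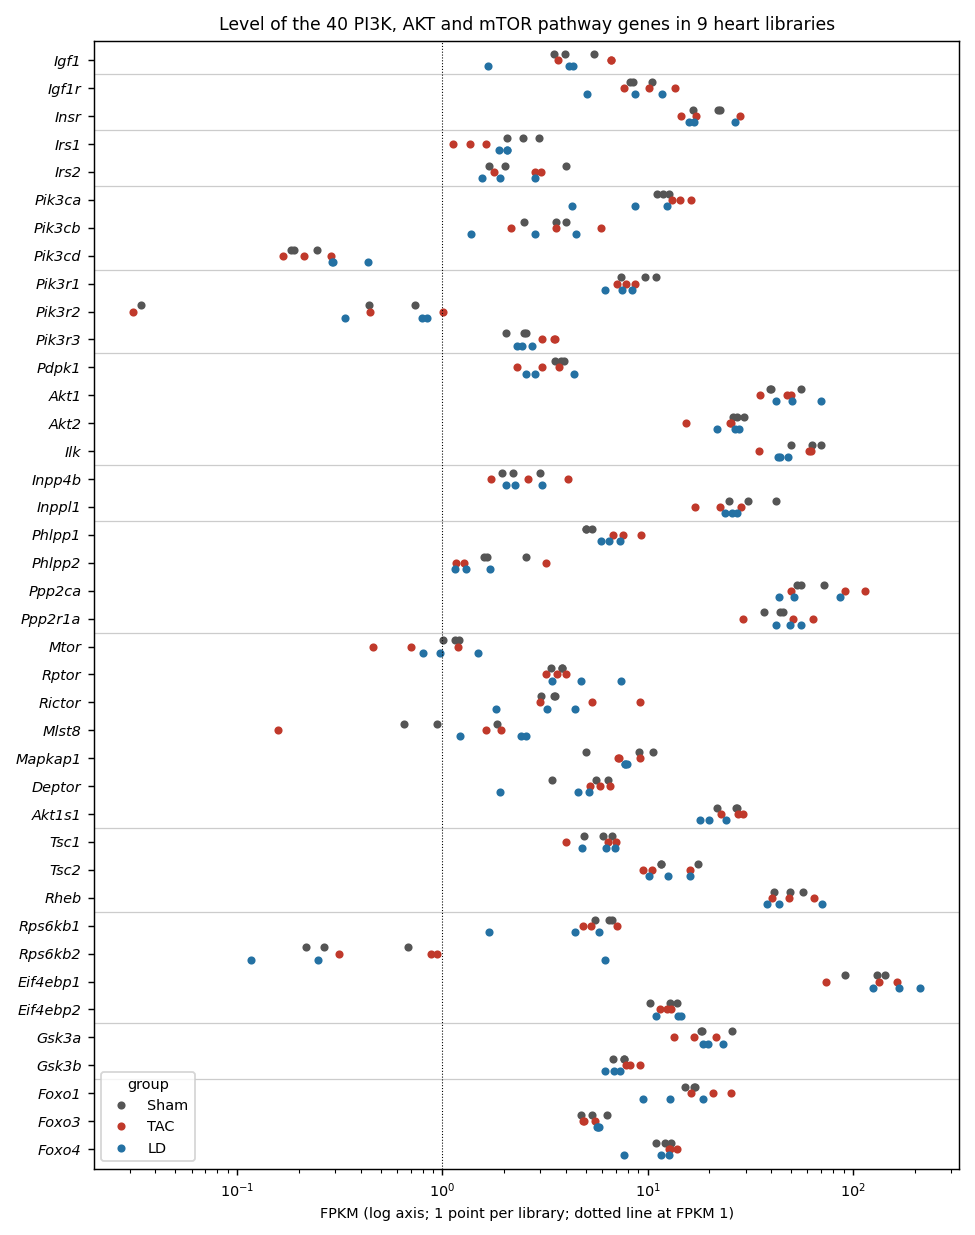
FPKM of the 40 pathway genes on a log axis, 1 point per library, coloured by group, with grey lines parting the layers and a dotted line at FPKM 1. Levels run from below 1 FPKM for Pik3cd, Pik3r2 and most Rps6kb2 points to 74.3 to 212 FPKM for Eif4ebp1, and within most genes the 3 groups overlap.

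Igf1 encodes the growth factor that starts the cascade at the IGF1 receptor. It measured 5.5, 3.96 and 3.5 FPKM in sham, 3.66, 6.64 and 6.66 in TAC and 4.14, 4.35 and 1.66 in LD. TAC2 and TAC3 were the highest libraries and LD3 the lowest, and the groups overlapped in every comparison. The difference was 0.30 ± 0.34 (SE) in TAC against sham and -0.63 ± 0.34 in LD against TAC (limma adjusted p = 0.583). The latter was -0.31 without LD3 and -0.87 without TAC1.

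Both receptors were well expressed, and the insulin receptor was the more abundant in 9 of 9 libraries. Insr measured 16.6, 22.5 and 21.9 FPKM in sham, 17.1, 14.5 and 28.2 in TAC and 26.5, 16.8 and 16.0 in LD. Igf1r measured 8.22, 8.49 and 10.5 FPKM in sham, 7.63, 10.2 and 13.6 in TAC and 11.7, 8.70 and 5.08 in LD. TAC3 was the highest library for each receptor, and the groups overlapped. Igf1r held 24.1% to 41.2% of the summed FPKM of the pair. The interval of the LD against TAC difference ran from -0.62 to 0.63 on the log2 scale for Insr and from -0.96 to 0.36 for Igf1r. That difference was 0.00 for Insr and -0.30 for Igf1r. Without LD3 and TAC3 together it was 0.40 ± 0.29 and 0.18 ± 0.28, and without LD1 it was -0.22 and -0.55.

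Irs1 and Irs2, the adaptors that carry the receptor signal to PI3K, were expressed at similar low levels. Irs1 measured 2.96, 2.47 and 2.07 FPKM in sham (mean 2.5 ± 0.446, SD, n = 3), 1.36, 1.63 and 1.12 in TAC (1.37 ± 0.254) and 2.06, 2.06 and 1.90 in LD (2.01 ± 0.0951). All TAC libraries lay below all sham and all LD libraries, and the LD libraries lay below the sham libraries, LD1 and LD2 by almost nothing. The difference was -0.56 ± 0.27 on the log2 scale in TAC against sham (95% interval -1.14 to 0.02, limma adjusted p = 0.935) and 0.35 ± 0.27 in LD against TAC (limma adjusted p = 0.679). Leaving out any 1 library kept the TAC against sham difference between -0.65 and -0.47. Irs1 lies on chromosome 1 at 82233101 to 82291416 (GRCm38, minus strand), and 30.9% of its exon bases are shared with the predicted gene Gm9747, whose reads could not be set apart here. With 92 to 491 recovered counts per library, Irs1 is among the less deeply counted members.

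Irs2 measured 1.68, 2.02 and 4.02 FPKM in sham, 1.78, 3.01 and 2.83 in TAC and 2.82, 1.92 and 1.57 in LD. Sham3 was the highest library and the groups overlapped. Irs1 exceeded Irs2 in 4 of 9 libraries, and in 6 of 9 with annotated exon lengths, so no order of this pair was stable. In TAC, Irs1 held 35.6% ± 7.6 (SD, n = 3) of the summed FPKM of the pair, against 50.9% ± 15 in sham and 49.6% ± 6.6 in LD. The log2 ratio was 0.92 lower in TAC than in sham, with an exact two-sided permutation p of 0.3, where 3 against 3 libraries cannot go below 0.1.

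Among the PI3K catalytic subunits, p110-alpha (Pik3ca), the form that acts chiefly below receptor tyrosine kinases, was the main transcript. Pik3ca measured 11.8, 12.8 and 11.0 FPKM in sham (mean 11.9 ± 0.855, SD, n = 3), 13.1, 14.3 and 16.3 in TAC (14.6 ± 1.61) and 12.4, 8.63 and 4.26 in LD (8.44 ± 4.09). Every TAC library was above every sham library and every LD library, but LD1 and the lowest TAC library differed little. The gene lies on chromosome 3 at 32397671 to 32468486 (GRCm38, plus strand). Its difference was 0.27 ± 0.31 on the log2 scale in TAC against sham (limma adjusted p = 0.999) and -0.82 ± 0.31 in LD against TAC (95% interval -1.49 to -0.15, limma unadjusted p = 0.0197, adjusted p = 0.537). The latter was the largest in size of the 37 members in that comparison. It was -1.13 without LD1, -0.45 without LD3 and -0.37 ± 0.27 without LD3 and TAC3 together. In LD against sham it was -0.55 ± 0.31, with -0.85 without LD1 and -0.18 without LD3.

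Pik3cb, the catalytic subunit that also answers to G protein-coupled receptors, measured 2.49, 3.99 and 3.56 FPKM in sham, 3.58, 2.16 and 5.91 in TAC and 4.46, 2.83 and 1.38 in LD. The groups overlapped, and the highest and lowest libraries were again TAC3 and LD3. The Pik3cb difference in LD against TAC was -0.34 ± 0.37, with -0.62 without LD1 and 0.26 ± 0.33 without LD3 and TAC3 together. Pik3ca held 73.4% to 86.9% of the summed FPKM of the pair. Its log2 ratio to Pik3cb was 0.28 lower in LD than in sham with no overlap (exact permutation p = 0.1, adjusted 0.557 over 39 comparisons). Pik3cd, the subunit best known from leukocytes, was listed at 0.184, 0.189 and 0.246 FPKM in sham, 0.287, 0.213 and 0.167 in TAC and 0.291, 0.295 and 0.435 in LD. These rest on 18 to 84 recovered counts per library, and the LD libraries lay just above all others. Pik3cd was scaled by 12017 bases, against 6259 annotated exon bases, so its level beside other genes may be set too low.

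The regulatory subunits hold the catalytic subunits inactive until an adaptor binds them. Pik3r1 (p85-alpha) measured 7.42, 11.0 and 9.73 FPKM in sham, 7.11, 8.72 and 7.86 in TAC and 8.40, 7.5 and 6.18 in LD, and was the most abundant regulatory subunit in 9 of 9 libraries. Pik3r3 (p55-gamma) measured 2.49, 2.05 and 2.55 FPKM in sham (mean 2.36 ± 0.273, SD, n = 3), 3.48, 3.06 and 3.52 in TAC (3.35 ± 0.254) and 2.74, 2.43 and 2.30 in LD (2.49 ± 0.225). For Pik3r3 the TAC libraries lay above all sham and all LD libraries, and sham and LD overlapped. Its difference was 0.37 ± 0.26 in TAC against sham (limma adjusted p = 0.991) and -0.32 ± 0.26 in LD against TAC (limma adjusted p = 0.692), and 24.3% of its exon bases are shared with the predicted gene Gm49337. Within the layer, Pik3r3 held 28.6% ± 2.8 of the FPKM in TAC, 20.0% ± 5.1 in sham and 23.8% ± 0.89 in LD. Pik3r2 (p85-beta) was listed at 0.0342, 0.736 and 0.437 FPKM in sham, 0.442, 0.0312 and 1.0 in TAC and 0.792, 0.334 and 0.839 in LD. It rests on 3 to 87 recovered counts per library and has no stable level here.

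AKT itself was carried mostly by Akt1. It measured 55.9, 39.3 and 39.7 FPKM in sham (mean 45 ± 9.49, SD, n = 3), 35.1, 47.8 and 49.9 in TAC (44.3 ± 8.01) and 50.5, 42.1 and 70.0 in LD (54.2 ± 14.3). LD3 was the highest library and TAC1 the lowest, and the groups overlapped in every comparison. The difference was -0.02 ± 0.26 in TAC against sham (95% interval -0.57 to 0.54, limma adjusted p = 0.9997). It was 0.27 ± 0.26 in LD against TAC (-0.29 to 0.83, limma adjusted p = 0.737), and the latter was 0.07 without LD3 and 0.43 without LD2.

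Akt2, the isoform tied most closely to insulin-driven glucose uptake, measured 27.1, 29.4 and 26.0 FPKM in sham, 25.3, 25.4 and 15.3 in TAC and 21.7, 26.6 and 27.7 in LD. All TAC libraries lay below all sham libraries, TAC1 and TAC2 by less than 1 FPKM from the nearest sham library, and TAC3 far below. The difference was -0.34 ± 0.25 in TAC against sham (95% interval -0.87 to 0.19, limma adjusted p = 0.997). It was -0.11 without TAC3 and -0.46 without TAC2. Akt1 exceeded Akt2 in 9 of 9 libraries and held 57.2% to 76.5% of their summed FPKM. That share was 61.7% ± 5.2 in sham, 66.6% ± 9.3 in TAC and 67.6% ± 5.6 in LD (SD, n = 3), and the exact permutation p of the log2 ratio was 0.6, 1 and 0.2 for TAC against sham, LD against TAC and LD against sham.

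Pdpk1, which encodes the AKT kinase PDK1, measured between 2.32 FPKM (TAC2) and 4.37 FPKM (LD1), with overlap in every comparison. Ilk, integrin-linked kinase, an adaptor of the cell-matrix contacts placed upstream of AKT, measured 63.0, 49.6 and 69.8 FPKM in sham, 62.4, 34.8 and 60.8 in TAC and 48.4, 42.9 and 44.2 in LD. All LD libraries lay below all sham libraries, LD1 only just, and TAC overlapped both. The difference in LD against sham was -0.41 ± 0.26 (limma adjusted p = 0.875). Of its exon bases, 89.7% are shared with Taf10 and Rrp8, so the value may hold reads of those genes.

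The lipid phosphatases take phosphates from PI3K products. Inppl1 (SHIP2) was the more abundant member, at 30.8, 24.8 and 42.0 FPKM in sham, 22.6, 16.9 and 28.5 in TAC and 27.4, 25.6 and 23.9 in LD. TAC2 was the lowest library and Sham3 the highest, and the groups overlapped. Of the Inppl1 exon bases, 20.3% are shared with Gm10602 and Phox2a. The difference was -0.50 ± 0.26 in TAC against sham (limma adjusted p = 0.958), with -0.30 without Sham3 and -0.67 without Sham2. Inpp4b measured between 1.73 FPKM (TAC2) and 4.08 FPKM (TAC3), so its lowest and highest libraries belong to the same group.

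PHLPP phosphatases remove the activating phosphate that mTORC2 places on AKT. Phlpp1 measured 5.01, 5.00 and 5.33 FPKM in sham (mean 5.11 ± 0.186, SD, n = 3), 7.54, 6.75 and 9.25 in TAC (7.85 ± 1.28) and 7.30, 5.92 and 6.49 in LD (6.57 ± 0.694). All TAC and all LD libraries lay above all sham libraries, while TAC and LD overlapped. The difference was 0.52 ± 0.24 in TAC against sham (limma unadjusted p = 0.0494, adjusted p = 0.919), between 0.41 and 0.62 when any 1 library was left out. In LD against sham it was 0.31 ± 0.24 (limma adjusted p = 0.878) and in LD against TAC -0.22 ± 0.24 (limma adjusted p = 0.776). Phlpp1 lies on chromosome 1 at 106171752 to 106394250 (GRCm38, plus strand), shares no exon base with another gene, and had 331 to 653 recovered counts per library.

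Phlpp2 measured 1.64, 1.59 and 2.56 FPKM in sham, 3.21, 1.17 and 1.28 in TAC and 1.71, 1.30 and 1.15 in LD. TAC1 was the highest library and the groups overlapped in every comparison. Phlpp1 exceeded Phlpp2 in 9 of 9 libraries and held 72.9% ± 4.6 of the pair in sham, 81.1% ± 9.5 in TAC and 82.7% ± 2.1 in LD (SD, n = 3). The log2 ratio was 0.82 higher in LD than in sham with no overlap (exact permutation p = 0.1, adjusted 0.557).

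The protein phosphatase PP2A, which also acts on AKT, was represented by its catalytic subunit Ppp2ca and its scaffold Ppp2r1a. Ppp2ca measured 72.1, 55.9 and 53.5 FPKM in sham, 49.6, 91.2 and 114 in TAC and 51.5, 43.7 and 86.7 in LD, with the widest spread inside TAC. Ppp2r1a measured between 29.0 FPKM (TAC3) and 63.7 FPKM (TAC1). Neither separated the groups. The Ppp2r1a difference in TAC against sham was 0.11 ± 0.28, with 0.43 without TAC3 and -0.13 without TAC1. The FPKM of Ppp2ca was scaled by 1930 bases, against 7490 annotated exon bases, and 41.3% of its exon bases are shared with other genes, so its level cannot be set firmly beside those of other members.

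**Figure D2:**
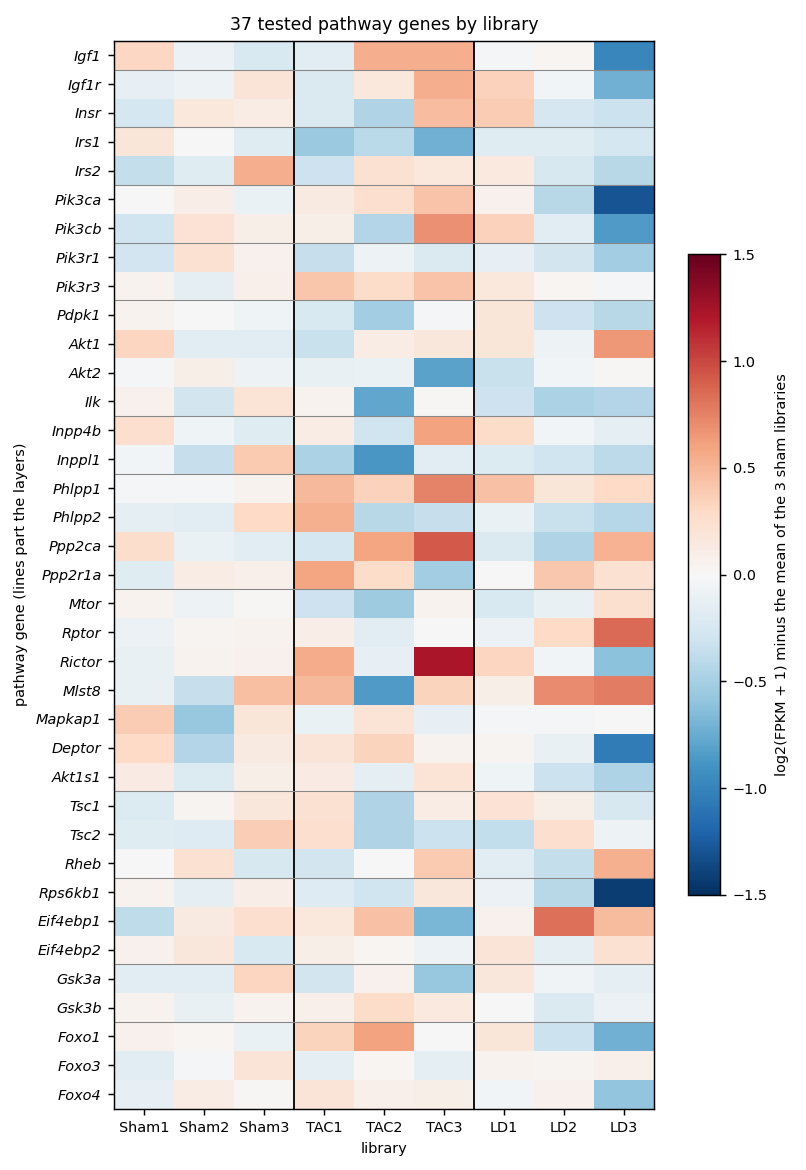
Heat map of log2(FPKM + 1) minus the mean of the 3 sham libraries for the 37 tested pathway genes (rows, layers parted by lines) in the 9 libraries (columns). TAC3 is the highest library for 12 members and LD3 the lowest for 13, and few rows change colour as a block between groups: Phlpp1 and Pik3r3 in TAC, and Irs1 in TAC, are examples.

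Within the mTOR complexes, the mTOR kinase was low. Mtor measured 1.20, 1.01 and 1.15 FPKM in sham, 0.706, 0.461 and 1.19 in TAC and 0.807, 0.969 and 1.49 in LD. TAC2 was the lowest library and LD3 the highest, and the groups overlapped. The difference was -0.27 ± 0.30 in TAC against sham (95% interval -0.91 to 0.37, limma adjusted p = 0.997) and 0.23 ± 0.30 in LD against TAC (limma adjusted p = 0.804). Its FPKM was scaled by 17189 bases, against 10109 annotated exon bases, so its level beside other genes may be set too low.

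Rptor encodes Raptor, the defining subunit of mTORC1, and Rictor that of mTORC2. Rptor measured 3.37, 3.81 and 3.83 FPKM in sham, 3.99, 3.19 and 3.63 in TAC and 3.41, 4.75 and 7.39 in LD. Rictor measured 3.02, 3.49 and 3.52 FPKM in sham, 5.38, 2.99 and 9.17 in TAC and 4.40, 3.22 and 1.82 in LD. LD3 was the highest library for Rptor and the lowest for Rictor, TAC3 was the highest for Rictor, and no group of either gene was separate. Raptor held 52.1% to 52.8% of the pair in sham, 28.4% to 51.6% in TAC and 43.6% to 80.2% in LD. The log2 ratio was 0.70 lower in TAC than in sham with no overlap (exact permutation p = 0.1, adjusted 0.557), although TAC2 lay within 1 percentage point of the lowest sham library. The Rictor difference was 0.56 ± 0.35 in TAC against sham (limma adjusted p = 0.976), with 0.22 without TAC3 and 0.89 without TAC2. In LD against TAC it was -0.67 ± 0.35 (limma adjusted p = 0.583), with -1.01 without TAC2 and -0.08 ± 0.32 without TAC3 and LD3 together.

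Deptor, an inhibitor that binds mTOR in both complexes, measured 6.43, 3.43 and 5.63 FPKM in sham, 5.86, 6.56 and 5.26 in TAC and 5.2, 4.57 and 1.90 in LD. All LD libraries lay below all TAC libraries, though LD1 and TAC3 were nearly equal. The difference was -0.56 ± 0.33 in LD against TAC (limma adjusted p = 0.607), with -0.23 without LD3 and -0.77 without LD1. Akt1s1 (PRAS40), an mTORC1 inhibitor that AKT phosphorylates, was the most abundant member of this layer. It measured 27.4, 21.7 and 26.8 FPKM in sham, 27.5, 22.8 and 29.1 in TAC and 24.1, 20.0 and 18.0 in LD, with a difference of -0.34 ± 0.23 in LD against TAC (limma adjusted p = 0.640) and overlapping groups. Mapkap1 (mSin1), the mTORC2 subunit that presents AKT to the kinase, measured 4.99 to 10.6 FPKM, with both ends of that range in sham. Mlst8, shared by both complexes, measured 0.158 FPKM in TAC2 and 0.647 to 2.56 FPKM in the other libraries, on 8 to 148 recovered counts. Of its exon bases, 22.5% are shared with Bricd5.

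The TSC proteins restrain Rheb, the small GTPase that activates mTORC1. Rheb measured 49.1, 57.2 and 41.2 FPKM in sham, 40.1, 48.6 and 64.5 in TAC and 43.5, 38 and 70.7 in LD. LD3 and TAC3 were the highest libraries and the groups overlapped. Rheb was scaled by 1521 bases against 7721 annotated exon bases, which bears on its level beside other genes and not on its differences between groups. Tsc2 exceeded Tsc1 in 9 of 9 libraries, with Tsc2 between 9.46 and 17.6 FPKM and Tsc1 between 4.01 and 7.02 FPKM. The difference in LD against TAC was 0.06 ± 0.28 for Tsc1, 0.11 ± 0.28 for Tsc2 and -0.04 ± 0.28 for Rheb, all with limma adjusted p above 0.9.

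The mTORC1 substrates included the most abundant transcript of the 40, with deposited and with annotated lengths. Eif4ebp1 encodes 4E-BP1, which blocks cap-dependent translation until mTORC1 phosphorylates it. It measured 91.3, 131 and 143 FPKM in sham (mean 122 ± 27.1, SD, n = 3), 134, 163 and 74.3 in TAC (124 ± 45.2) and 125, 212 and 167 in LD (168 ± 43.7). LD2 was the highest library and TAC3 the lowest, and the groups overlapped. The difference was 0.48 ± 0.31 in LD against TAC (95% interval -0.18 to 1.14, limma adjusted p = 0.630). It was 0.15 without TAC3 and 0.71 without TAC2. Eif4ebp2 measured 12.8, 13.8 and 10.2 FPKM in sham, 13.0, 12.5 and 11.5 in TAC and 14.1, 10.9 and 14.5 in LD, and was below Eif4ebp1 in 9 of 9 libraries. Its groups overlapped in every comparison.

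S6 kinase 1 (Rps6kb1) measured 6.45, 5.51 and 6.70 FPKM in sham, 5.28, 4.84 and 7.12 in TAC and 5.78, 4.41 and 1.68 in LD. LD3 was far below the other libraries, and the groups overlapped. The difference was -0.53 ± 0.33 in LD against TAC (limma adjusted p = 0.628). It was -0.81 without LD1, -0.14 without LD3 and 0.00 ± 0.28 without LD3 and TAC3 together. S6 kinase 2 (Rps6kb2) was listed at 0.682, 0.217 and 0.265 FPKM in sham, 0.313, 0.884 and 0.939 in TAC and 0.248, 0.116 and 6.21 in LD. LD3 held 379 recovered counts of it, against 7 to 50 in the other libraries, and was the 1 library in which Rps6kb2 exceeded Rps6kb1. Of its exon bases, 23.7% are shared with Ptprcap and Coro1b, and the part of those genes in the LD3 value was not tested.

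GSK3 kinases are switched off by AKT. Gsk3a measured 18.2, 18.3 and 25.7 FPKM in sham, 16.8, 21.4 and 13.4 in TAC and 23.2, 19.8 and 18.5 in LD. Gsk3b measured 7.66, 6.75 and 7.69 FPKM in sham (mean 7.37 ± 0.538, SD, n = 3), 7.82, 9.15 and 8.22 in TAC (8.40 ± 0.682) and 7.36, 6.17 and 6.85 in LD (6.79 ± 0.599). For Gsk3b every TAC library lay above every sham and every LD library, and for Gsk3a the groups overlapped. The Gsk3b differences were small, 0.17 ± 0.23 in TAC against sham (limma adjusted p = 0.999) and -0.27 ± 0.23 in LD against TAC (limma adjusted p = 0.711). As a share, Gsk3a held 70.3%, 73.1% and 77.0% of the pair in sham, 68.2%, 70.1% and 62.0% in TAC and 75.9%, 76.2% and 73.0% in LD. TAC lay below both other groups in this share, although TAC2 and Sham1 nearly touched. The log2 ratio was 0.46 lower in TAC than in sham and 0.58 higher in LD than in TAC (exact permutation p = 0.1 for each, adjusted 0.557), and these comparisons share the TAC libraries. Gsk3a shares 28.3% of its exon bases with 9130221H12Rik.

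FoxO factors enter the nucleus when AKT is inactive and drive genes of atrophy, fuel use and growth arrest. Foxo1 had the highest deposited FPKM of the FoxO members in 9 of 9 libraries, an order that rests on the lengths used: with annotated exon lengths (8665 bases for Foxo1 in place of 5552, 3485 for Foxo4 in place of 5033) Foxo4 leads in 9 of 9. Foxo1 measured 17.1, 16.8 and 15.2 FPKM in sham (mean 16.4 ± 0.994, SD, n = 3), 20.9, 25.4 and 16.2 in TAC (20.8 ± 4.60) and 18.7, 12.8 and 9.54 in LD (13.7 ± 4.64). LD1 lay above TAC3, so LD and TAC overlapped, and so did the other pairs of groups. The difference was 0.31 ± 0.27 in TAC against sham (limma adjusted p = 0.997) and -0.60 ± 0.27 in LD against TAC (95% interval -1.18 to -0.01, limma unadjusted p = 0.0467, adjusted p = 0.562). The latter was -0.38 without LD3, -0.83 without LD1 and -0.54 ± 0.27 without LD3 and TAC3 together. Foxo1 lies on chromosome 3 at 52268336 to 52353221 (GRCm38, plus strand).

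Foxo4 measured 11.0, 13.0 and 12.1 FPKM in sham, 13.8, 12.7 and 12.9 in TAC and 11.7, 12.7 and 7.66 in LD. Foxo3 measured 4.75, 5.35 and 6.37 FPKM in sham, 4.89, 5.56 and 4.85 in TAC and 5.71, 5.63 and 5.78 in LD, the lowest of the 3 in every library. LD libraries lay above TAC libraries for Foxo3 and below them for Foxo4, in each case with neighbouring libraries nearly equal. The differences in LD against TAC were 0.14 ± 0.24 for Foxo3 (limma adjusted p = 0.862) and -0.30 ± 0.25 for Foxo4 (limma adjusted p = 0.693). The latter was -0.10 without LD3 and -0.43 without LD2. Foxo3 held 19.7% ± 4.9 of the FoxO FPKM in LD, 13.1% ± 1.0 in TAC and 16.2% ± 2.4 in sham (SD, n = 3). The log2 ratios of Foxo1 and of Foxo4 to Foxo3 were 0.80 and 0.50 lower in LD than in TAC, each with no overlap (exact permutation p = 0.1, adjusted 0.557).

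Because FoxO factors sit at the end of the cascade, the members' own promoters were searched for the FoxO core letters GTAAACA, or TGTTTAC on the other strand, within 250 bases before to 50 bases after each RefSeq start (GRCm38.p6). RefSeq promoters were matched for 35 of the 40 members, 48 promoters in all. The letters occurred in 3 of 48 (6.25%), against 3.65% of all 32851 promoters, and belonged to 2 members, Akt1 and Mapkap1. The 2 Mapkap1 promoters overlap and hold the same site, so the 3 matches are 2 sites. Both act in AKT activation, and both are printed here from 250 bases before the start to the base before it, 5′ to 3′ on the gene's strand, with the matched letters in capitals. The Akt1 window is chr12:112674885-112675134 (minus strand), and its match begins 161 bases before the start. The Mapkap1 window is chr2:34406521-34406770 (plus strand), and its match begins 99 bases before the start. A match of letters is a description and no evidence that a factor binds there, and neither gene passed the test in any comparison.
Akt1: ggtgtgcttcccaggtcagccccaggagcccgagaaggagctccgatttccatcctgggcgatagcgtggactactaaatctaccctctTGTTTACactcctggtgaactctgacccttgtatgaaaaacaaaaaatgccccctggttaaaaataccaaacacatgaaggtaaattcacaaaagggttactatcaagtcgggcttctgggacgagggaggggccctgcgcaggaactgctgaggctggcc
Mapkap1: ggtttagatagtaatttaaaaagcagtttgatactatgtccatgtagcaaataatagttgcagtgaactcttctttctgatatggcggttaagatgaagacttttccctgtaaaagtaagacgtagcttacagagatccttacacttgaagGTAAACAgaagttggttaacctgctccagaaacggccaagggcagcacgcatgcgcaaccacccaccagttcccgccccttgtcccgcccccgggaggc

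**Figure D3:**
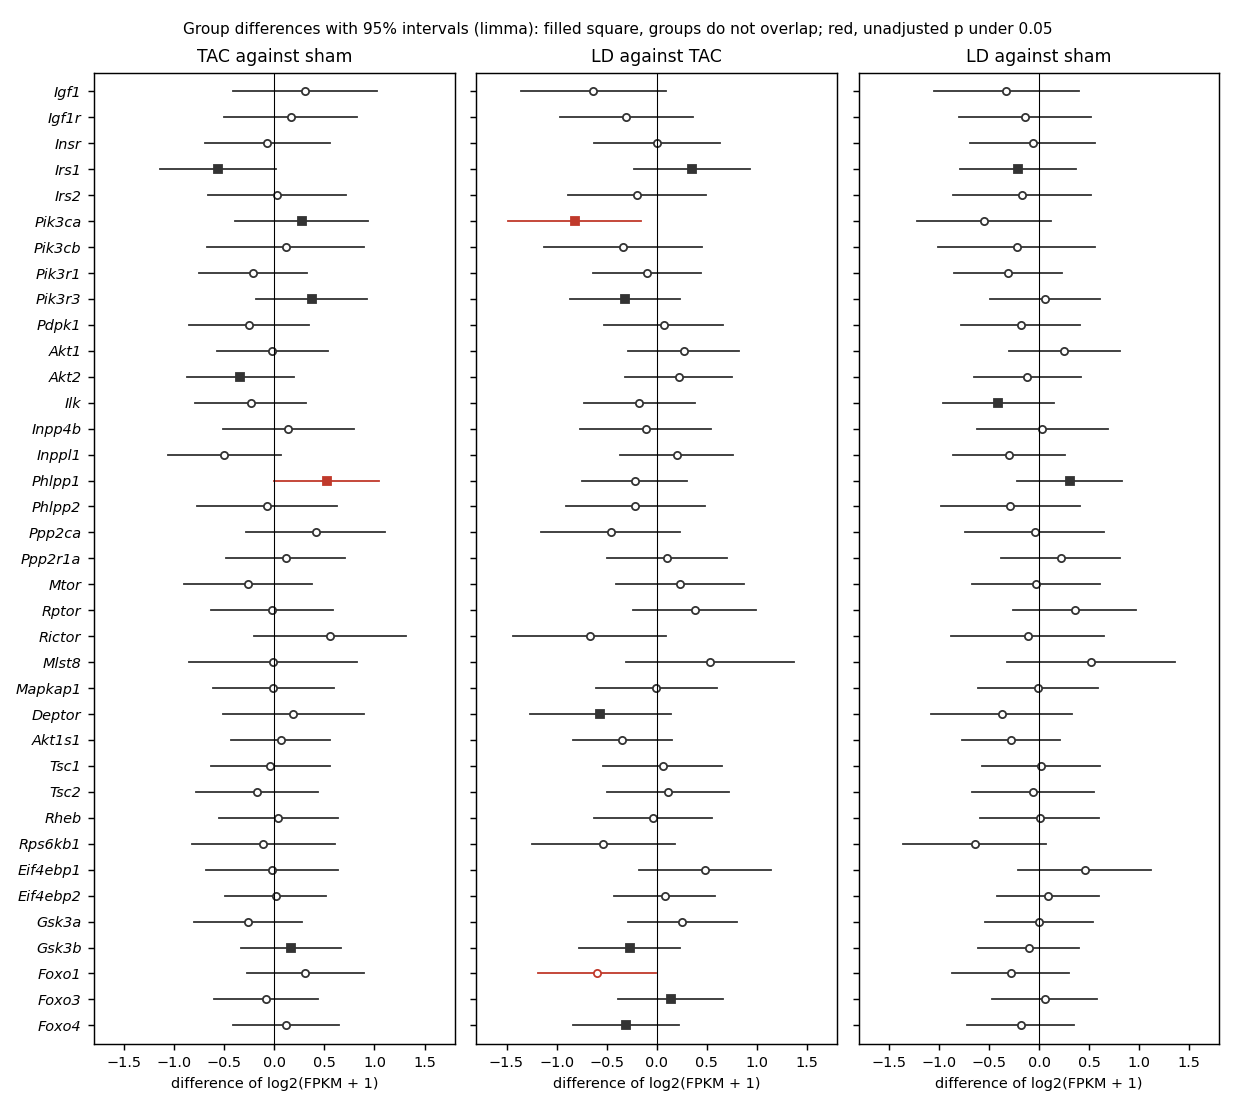
Difference of log2(FPKM + 1) for the 37 tested pathway genes in the 3 comparisons, each with its 95% interval from limma, red where the unadjusted p is under 0.05 and with a filled square where the groups do not overlap. Nearly all intervals cross 0, and those that do not are Phlpp1 in TAC against sham and Pik3ca and Foxo1 in LD against TAC, none of which passes after adjustment.

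Several orders of paralogues held in every library. In 9 of 9 libraries Insr exceeded Igf1r, Pik3ca exceeded Pik3cb, Pik3r1 exceeded the other regulatory subunits, Akt1 exceeded Akt2, Phlpp1 exceeded Phlpp2, Tsc2 exceeded Tsc1, Eif4ebp1 exceeded Eif4ebp2, Gsk3a exceeded Gsk3b, and Foxo1 and Foxo4 exceeded Foxo3. These orders were the same in 9 of 9 libraries when FPKM was rescaled to annotated exon lengths, whereas the order of Foxo1 and Foxo4 reversed. Rps6kb1 exceeded Rps6kb2 in 8 of 9 libraries and Rptor exceeded Rictor in 6. With annotated lengths Irs1 exceeded Irs2 in 6 of 9 libraries in place of 4. The differences of log2 ratios between groups depend neither on gene length nor on library scaling. Of 39 comparisons (13 pairs, 3 comparisons each), 7 had no overlap, each at the smallest exact permutation p of 0.1, and none passed after adjustment. That 0.1 is also the share of regroupings of 3 against 3 libraries that do not overlap. The comparisons share libraries, some share Foxo3, and no share over other gene pairs was computed, so the 7 are no result about the paralogues.

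**Figure D4:**
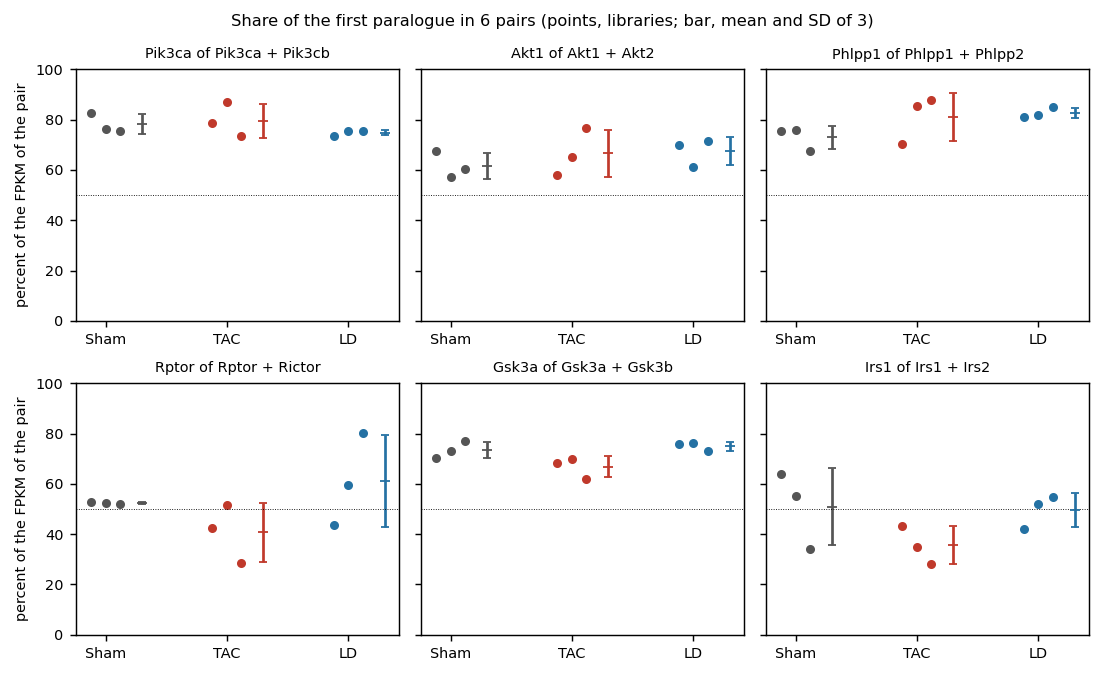
Share of the first gene in the summed FPKM of 6 paralogue pairs, by group, with 1 point per library and the mean and SD of 3 libraries beside them (vertical axis in percent, dotted line at 50%). Akt1, Pik3ca, Phlpp1 and Gsk3a stay above 50% in all 9 libraries, whereas Irs1 and Rptor cross it.

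TAC3 and LD3 set many of the largest member differences. TAC3 was the highest library for 12 of 37 members (27.3% of all genes tested) and LD3 the lowest for 13 (31.1% of all genes tested). The members share these extremes of TAC3 and LD3 with the rest of the table. TAC2 was the lowest library for 10 of 37 members, beside 10.8% of all genes tested, and this was not tested. The difference between LD3 and TAC3 was set beside the GC content of each member's longest coding transcript. LD3 minus TAC3 was -1.85 on the log2 scale for Rictor, -1.72 for Pik3ca, -1.60 for Rps6kb1, -1.54 for Pik3cb and -1.52 for Igf1, whose GC content is 38% to 45.8%. It was 0.86 for Rptor, 0.82 for Akt2 and 0.48 for Akt1, whose GC content is 55.2% to 59.7%. Other members went the opposite way: the highest value, 1.16, was that of Eif4ebp1 at a GC content of 48.2%, and Akt1s1, with the highest GC content of 61.8%, was at -0.66. Of 18 members below the median GC content of 49.4%, LD3 was lower than TAC3 for 15, and of 18 above it, for 7. Spearman's rho between GC content and this difference was 0.54 over 37 members, which share both libraries, and is given as a description. Over all 10987 genes tested with a GC value, the rho of GC content with a library's deviation was -0.41 for TAC3 and 0.20 for LD3, beside -0.49 and 0.45 over the 37 members. Other libraries ran from -0.19 (TAC2) to 0.35 (LD2) over all genes, where TAC3 was the lowest and both LD2 and Sham3 (0.25) were above LD3. Over the members the other libraries ran from -0.24 (TAC2) to 0.29 (Sham3), so TAC3 and LD3 stood at the ends there. With transcript length, rho over the members was 0.30 for TAC3, -0.41 for LD3 and 0.42 for LD1. Whether base composition had a part in the member differences was not tested beyond the values without these libraries.

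**Figure D5:**
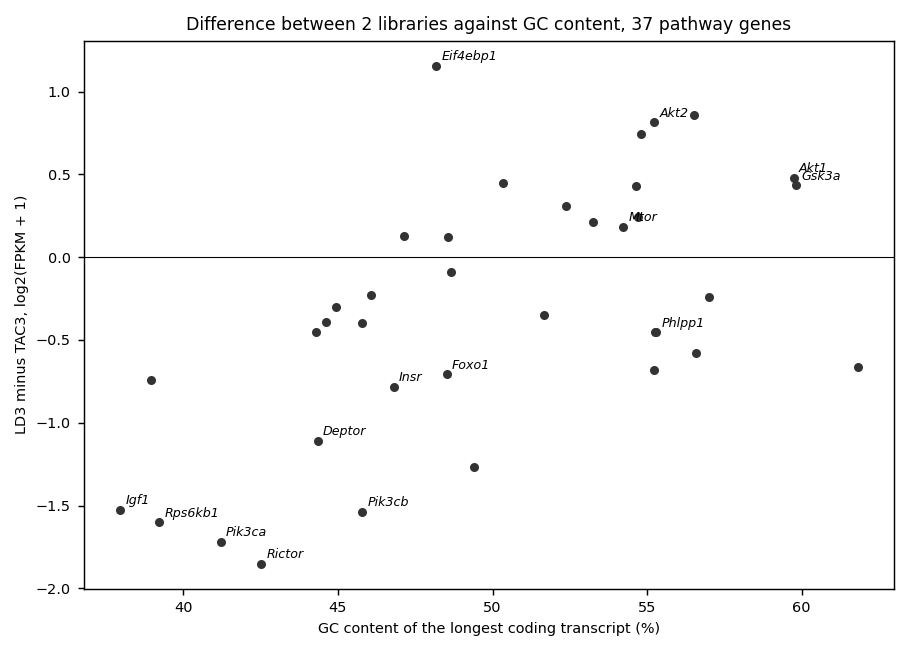
LD3 minus TAC3 in log2(FPKM + 1) (vertical axis) against the GC content of the longest coding transcript in percent (horizontal axis), 1 point per tested pathway gene. Igf1, Rps6kb1, Pik3ca, Rictor and Pik3cb lie at or below -1.52 with a GC content of at most 45.8%, Akt1, Akt2 and Gsk3a lie above 0 with at least 55.2%, and the points scatter: Eif4ebp1 (48.2%) is highest at 1.16, and Akt1s1 (61.8%) and Foxo4 (55.2%) lie at -0.66 and -0.68.

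Genes that surround the pathway were counted from 11 lists, and none of their genes passed in any comparison. Of the list of IGF binding proteins, which hold or release IGF1, and the IGF2 axis, 7 genes were tested, and 4 of them, all binding proteins, were higher in TAC than in sham at an unadjusted p under 0.05, where 5.43% of all genes tested were called. The list median was 0.70, beside 0.00 for all genes. Igfbp6 had a mean of 38.2 FPKM in sham, 77.5 in TAC and 75.9 in LD, and its difference in TAC against sham was 0.94 ± 0.28 (limma adjusted p = 0.772). Igfbp3 differed by 1.02 ± 0.34 and Igfbp7 by 0.85 ± 0.34 in TAC against sham. Igfbp5 had means of 14.3, 23.5 and 11.8 FPKM and differed by 0.70 ± 0.29 in TAC against sham and -0.90 ± 0.29 in LD against TAC (limma adjusted p = 0.537). Of the fibroblast markers, 4 of 6 were higher in TAC than in sham and 3 of 6 lower in LD than in TAC at the same threshold, where 5.43% and 8.82% of all genes tested were called. Dcn, a fibroblast matrix gene, differed by 1.09 ± 0.28 and -0.97 ± 0.28 in those comparisons (limma adjusted p = 0.561 and 0.520), and the part of fibroblast content in the values of the binding proteins was not tested.

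FoxO target genes gave the lowest list median of LD against TAC among the 11 lists, at -0.39 beside -0.10 for all genes, with 18 of 20 below 0, where 6875 of 11380 genes were. At an unadjusted p under 0.05, 3 of 20 were lower, where 8.82% of all genes tested were called. In the same comparison 3 of 6 fibroblast markers (list median -0.77) and 2 of 4 erythroid markers (-1.25) were lower and 2 of 8 cardiomyocyte markers (0.26) higher at that threshold. Cardiomyocyte markers summed to 35961 to 39708 FPKM in sham, 29327 (TAC3) to 35381 in TAC and 35216 to 50059 (LD3) in LD, and the part of cell makeup in the FoxO target values was not tested. Pdk4, a brake on glucose oxidation, had means of 482 FPKM in sham, 553 in TAC and 298 in LD. Its difference was -0.85 ± 0.24 in LD against TAC (limma adjusted p = 0.495) and -0.69 ± 0.24 in LD against sham (limma adjusted p = 0.875). Trim63 (MuRF1), a muscle ubiquitin ligase, had means of 104, 161 and 113 FPKM, with a difference of 0.62 ± 0.21 in TAC against sham (limma adjusted p = 0.772) and -0.50 ± 0.21 in LD against TAC (limma adjusted p = 0.540). Cited2 differed by -0.64 ± 0.27 in LD against TAC and Cdkn1a, a cell cycle inhibitor, by -0.68 ± 0.30 in LD against sham. In TAC against sham the list median was 0.14, with 12 of 20 above 0.

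Amino acid sensing upstream of mTORC1 held 1 gene higher in TAC than in sham and, in LD against TAC, 1 higher and 2 lower of 16 tested at an unadjusted p under 0.05, where 5.43% and 8.82% of all genes tested were called. Rraga, a Rag GTPase that brings mTORC1 to the lysosome, had means of 10.6, 23.4 and 10.3 FPKM in sham, TAC and LD, with differences of 0.96 ± 0.32 and -1.0 ± 0.32 (limma adjusted p = 0.772 and 0.537). Lamtor2, part of its lysosomal anchor, differed by 0.77 ± 0.31 in LD against TAC, Ddit4l by -1.04 ± 0.44 and Depdc5 by 0.60 ± 0.34. Among the AMPK genes, 1 of 9 was lower in LD than in TAC at that threshold: Prkaa1, a catalytic subunit, by -0.78 ± 0.34. Prkag1 differed by 0.46 ± 0.22, Stk11 by 0.40 ± 0.22 and Cab39 by -0.33 ± 0.29. Of 12 genes of cap-dependent translation, 1 was lower in LD than in TAC, Eif4g3 by -0.76 ± 0.30, while Eif4e, the cap-binding protein that 4E-BP1 holds, differed by -0.42 ± 0.30, Eif4g2 by -0.38 ± 0.26 and Eif4a2 by -0.06 ± 0.30.

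Among other receptors that feed PI3K, 1 of 10 tested genes was higher in TAC than in sham and 2 were lower in LD than in TAC at an unadjusted p under 0.05, where 5.43% and 8.82% of all genes tested were called. Pdgfra, also one of the fibroblast markers, differed by 0.66 ± 0.28 and -0.68 ± 0.28, and the endothelial receptor Tek by 0.40 ± 0.24 and -0.57 ± 0.24. Kit differed by -0.41 ± 0.31 and -0.13 ± 0.31, and Fgfr1 by 0.37 ± 0.24 and -0.15 ± 0.24. Of the receptor adaptors and brakes, all 10 tested genes had a difference below 0 in LD against TAC, where 6875 of 11380 genes did, and 1 reached that threshold. Grb10, an inhibitor of the insulin receptor, differed by -0.68 ± 0.30, Grb14 by -0.57 ± 0.27, Sh2b1 by -0.26 ± 0.29 and Ptpn11 by -0.16 ± 0.23. Of 6 other PI3K subunits, 1 was higher in TAC than in sham, the PI3K inhibitor Pik3ip1 by 0.73 ± 0.25 (limma adjusted p = 0.772). Pik3r4 differed by 0.34 ± 0.27, Pik3c2b by 0.12 ± 0.28 and Pik3c2a by 0.36 ± 0.33 in that comparison. None of 9 AKT-like kinases and AKT partners reached the threshold, and the lowest in LD against TAC was Hsp90aa1 at -0.72 ± 0.34, beside Trib1 at -0.38 ± 0.29, Hsp90ab1 at -0.24 ± 0.20 and Sgk1 at -0.05 ± 0.33.

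The series' title sets the MAP kinases beside AKT. Of 20 genes of the ERK cascade, 1 was lower in TAC than in sham, and 1 was higher and 1 lower in LD than in TAC at an unadjusted p under 0.05, shares near the 5.43% and 8.82% of all genes tested. Rps6ka1, an ERK-activated kinase, had means of 4.50, 2.03 and 4.21 FPKM, with differences of -0.88 ± 0.32 and 0.79 ± 0.32 (limma adjusted p = 0.789 and 0.537). Nras differed by -0.82 ± 0.29 in LD against TAC, Map2k1 by -0.51 ± 0.25 and Ksr1 by 0.47 ± 0.27 in TAC against sham. None of 16 p38 and JNK pathway genes tested reached the threshold, with Mapk12 at -0.55 ± 0.29, Map3k7 at -0.56 ± 0.30, Map3k5 at -0.43 ± 0.29 and Traf6 at -0.18 ± 0.29 in LD against TAC. The list medians in LD against TAC were -0.23 for the ERK cascade, -0.12 for p38 and JNK and -0.09 for the PI3K, AKT and mTOR members, beside -0.10 for all genes.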

How the data were processed

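Poly-A RNA of whole hearts was sequenced in 9 libraries, 3 per group, per the labels. The deposited table gives FPKM values for each gene symbol. The submitters' processing notes name the build GRCm38 and, with no roles, Cufflinks 2.2.1, HTSeq 0.7.2, HISAT2 2.1.0, fastp 0.20.0, CASAVA 1.8 and DESeq. Not given in the sources used here are the annotation and the strand setting. The labels call the samples biological repeats but name no animal, so p-values measure the spread between these samples.

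FPKM values were whole multiples of 1 count. The steps gave library totals, and then a count and a length for each gene. All 16262 genes above 0 came out whole within 0.001. The length was searched for so that values came out whole, which makes this a weak check for genes seen in few libraries. Of 15593 genes with an annotated exon length, 1.75% had a recovered length equal to it. Counting 3 reads in a gene of 1 kilobase gives 0.166 to 0.404 FPKM. Such limits cover counting error only. Coordinates, GC content and exon overlaps came from the GENCODE annotation given for GRCm38.

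Values were tested as log2(FPKM + 1), which understates the change of low genes, in R 4.3.3 with limma 3.58.1. All 9 libraries entered a single fit with a mean for each group, and empirical Bayes used a trend. The 11380 genes at 1 FPKM or more in 3 or more libraries were tested, with Benjamini-Hochberg adjustment over all of them. The fit was also run on simulated data, with equal spread in every library and changes larger than any member difference of the main fit. That run does not bear on outlying libraries or on differences as small as those of the members. Paralogue ratios were compared by exact two-sided permutation tests (scipy 1.17.1), adjusted over 39 comparisons. Alternatives varied the pseudocount, filter, scaling, trend, weights, groups, replicate block and libraries, and used voom on the recovered counts. Those on the counting step and on annotated gene lengths were chosen after seeing the data.

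Every member is named. Values in each library are given for the most abundant member of each layer, its paralogues, and any member with an unadjusted p under 0.05 or no overlap between groups, and a few more were added after their values were seen. Of each surrounding list, up to 4 genes of smallest unadjusted p are named. The members and lists were chosen with earlier results of these data known.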

Additional observations from a re-analysis of the deposited data

How the results depend on the processing

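No member passed an adjusted p of 0.05 in any alternative that was run, and the smallest adjusted p of a member was 0.424 in TAC against sham, 0.221 in LD against TAC and 0.106 in LD against sham. The sign was the same in every alternative for 15, 19 and 15 of 37 members in those comparisons. The cause of the moves below was not tested. Counts of all genes passing, 0 as reported, were as follows. In TAC against sham they were 2 with an FPKM of at least 1 in all 9 libraries, 9 with array quality weights, 4 with voom on recovered counts and 6 with only the 4 libraries whose steps come in pairs, and from 0 to 13 leaving out 1 library, with 13 without TAC1. In LD against sham they were 3, 135 and 3 under the first 3 of these settings, 10 with only the 2 groups compared, and from 0 to 8 leaving out 1 library, with 8 without TAC1. For any group differs they were 2, 44 and 3, and from 0 to 8, with 8 without TAC1. In LD against TAC, median log2 difference of members -0.09, the value was 0.030 with median-of-ratios scaling, -0.19 with equal FPKM sums, -0.0015 without TAC3 and LD3 together, and from -0.22 to -0.013 leaving out 1 library. In LD against sham, median log2 difference of members -0.10, it was 0.0077 with median-of-ratios scaling, and from -0.16 to -0.019 leaving out 1 library, with -0.019 without LD3. Paralogue ratios with no overlap numbered 7, a count that annotated exon lengths cannot alter. Leaving out 1 library gave 8 to 12, where groups of 2 overlap less often by construction. With the replicate number as a block, 0 genes passed in any comparison. Deviations of same-numbered libraries correlated between -0.24 and 0.15, and those of differently numbered libraries between -0.27 and 0.37. With so few libraries this cannot show whether those of the same number share anything else. Depth limits Pik3r2, Rps6kb2, Pik3cd and Mlst8, which had as few as 3, 7, 18 and 8 recovered counts in a library.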
